A study of Mus musculus with 25 samples.

Results

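Chemokine ligands are small secreted proteins that steer leukocytes, and the 34 ligand genes described here were chosen by name from that family. They and the other gene lists used below were chosen with earlier results of these data known. All 34 had a row in the immune cell count table of 51912 genes, and 26 had a row in the hepatocyte count table of 18668 genes. After a filter on low counts, 22 of the 26 were tested in hepatocytes and 32 of the 34 in immune cells. The 8 ligands with no row among the hepatocyte genes were Ccl8, Ccl11, Ccl12, Ccl17, Ccl19, Cxcl3, Cxcl15 and Xcl1, and the lowest total of any row in that table was 10 counts.

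The study profiled RNA from sorted mouse liver cells, with 13 hepatocyte libraries in 5 groups and 12 immune cell libraries in 6 groups, all on a mixed C57BL/6J and 129SV background. The GFP group (n = 2) and the IL-6 group (n = 3) were wild-type mice that received a GFP or an IL6 plasmid by hydrodynamic injection 1 week earlier. The IL-6 STAT3-knockout group (n = 3) carried a floxed Stat3 gene and received AAV-TBG-Cre 2 weeks and the IL6 plasmid 1 week before collection. TBG is a hepatocyte promoter, so Cre was directed to hepatocytes and not to immune cells. The DDC group (n = 2) carried the same floxed Stat3 gene, received AAV-TBG-GFP for 2 weeks and ate DDC for 1 week. DDC is a diet additive that injures bile ducts and hepatocytes. The DDC STAT3-knockout group (n = 3) differed from it in receiving AAV-TBG-Cre. The immune cells came from wild-type livers with 2 libraries a group: macrophages on DDC and on normal diet, and T cells, neutrophils, Ly6C-low monocytes and Ly6C-high monocytes on DDC for 1 week. IL-6 STAT3-knockout and IL-6 mice differ in genotype, virus and Il6 RNA level as well as in hepatocyte STAT3, and these cannot be told apart. DDC and GFP mice differ in genotype, virus, plasmid injection and diet, which also cannot be told apart. The labels do not say whether replicates came from separate animals. The p-values set group differences against the spread between replicates. That spread may be technical only, and the p-values would then be too small.

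Levels are CPM, that is counts relative to the scaled library size, and a gene is called where its Benjamini-Hochberg adjusted p over all genes tested (edgeR quasi-likelihood test) is under 0.05. Library totals ran from 13625040 to 18428988 counts in hepatocytes and from 3817794 to 12945663 in immune cells. Neutrophil replicate 2 had the lowest total and 19.0% of its counts in the gene Gm10800, against 0.318% to 8.85% in the other immune libraries. Stat3 itself stood at 109 and 98.8 CPM in GFP, at 339.5 to 424 CPM with the IL6 plasmid and at 95.99 to 116 CPM with the plasmid and Cre, and at 112 and 150.0 CPM on DDC against 56.2 to 87.2 CPM on DDC with Cre. These counts cover the whole gene and do not separate the deleted exons, so how complete the deletion was was not tested. IL-6 replicate 3 stands apart, with 424 CPM in the EGFP transgene row where IL-6 replicates 1 and 2 had 7.08 and 5.06 CPM; the 2 DDC libraries, given AAV-TBG-GFP, had 1309 and 1496 CPM. Its summed hepatocyte markers were 16438 CPM against 48430 to 158513 CPM in all other hepatocyte libraries. Hepatocyte libraries held RNA of other cells: 8 Kupffer cell markers summed to 27.3 and 33.8 CPM in GFP, 71.2 to 162 in IL-6, 107 to 251 in IL-6 STAT3-knockout, 271 and 435 in DDC, and 52.0 to 391 in DDC STAT3-knockout libraries. T cell markers summed to at most 0.493 CPM and NK cell markers to at most 0.561 CPM there. Of the sorted cells, those labelled T cells had 468 and 406 CPM of 8 T cell markers, at most 143 CPM elsewhere, but also 6199 and 11104 CPM of Kupffer cell markers and 4331 and 2609 CPM of hepatocyte markers. In bulk libraries, fewer cells of a type and less RNA per cell cannot be told apart.

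Chemokines are grouped by the spacing of their first cysteines into CC, CXC, CX3C and XC ligands, and they act on receptors of the matching names. CXC ligands that carry a glutamate-leucine-arginine motif (Cxcl1, Cxcl2, Cxcl3, Cxcl5 and Ppbp in mice) draw neutrophils through CXCR2, and interferon-inducible Cxcl9, Cxcl10 and Cxcl11 draw activated T and NK cells through CXCR3. Among CC ligands, Ccl2, Ccl7 and Ccl12 draw monocytes through CCR2. In liver, hepatocytes, Kupffer cells, stellate cells and endothelium can each be a source, and inflammatory ligands are induced through NF-kB and STAT3.

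The genes lie in clusters. On mm10, chromosome 5 holds 12 of the 34 and chromosome 11 holds 11. Cxcl1 lies at chr5:90891241-90893115 on the plus strand, and Cxcl9, Cxcl10 and Cxcl11 lie together on the minus strand at chr5:92321347-92328079, chr5:92346638-92348889 and chr5:92359544-92365485. Ccl2 lies at chr11:82035571-82037453 beside Ccl7 at chr11:82045712-82047525. Cxcl14 lies alone at chr13:56288643-56296551. Annotation lists Cxcl11 as a polymorphic pseudogene.

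Promoters of 3 ligands called higher in different groups than in GFP are shown: Cxcl1 with IL-6 and DDC, Cxcl10 with DDC, Cxcl14 with IL-6. The Cxcl10 call rests on DDC replicate 1. Sequences are from RefSeq (GRCm38.p6), 5′ to 3′ on the strand of the gene, and end at the base before the RefSeq start. The windows are chr5:90891125-90891244 (plus) for Cxcl1, chr5:92348890-92349139 (minus) for Cxcl10 and chr13:56296552-56296801 (minus) for Cxcl14. Capitals mark matches, on either strand, to GGG, any 3 bases, then TTCC (the NF-kB motif), to TTTC, any 2 bases, then TTTC (the interferon-stimulated response element), or to TTCNNNGAA (the STAT motif).
Cxcl1: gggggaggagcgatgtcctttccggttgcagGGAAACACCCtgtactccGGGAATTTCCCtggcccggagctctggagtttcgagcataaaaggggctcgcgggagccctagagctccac
Cxcl10: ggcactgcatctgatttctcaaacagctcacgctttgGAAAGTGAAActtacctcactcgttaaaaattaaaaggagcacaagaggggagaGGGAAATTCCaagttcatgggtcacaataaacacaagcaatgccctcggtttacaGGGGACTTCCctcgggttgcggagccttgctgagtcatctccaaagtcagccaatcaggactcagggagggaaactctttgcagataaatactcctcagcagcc
Cxcl14: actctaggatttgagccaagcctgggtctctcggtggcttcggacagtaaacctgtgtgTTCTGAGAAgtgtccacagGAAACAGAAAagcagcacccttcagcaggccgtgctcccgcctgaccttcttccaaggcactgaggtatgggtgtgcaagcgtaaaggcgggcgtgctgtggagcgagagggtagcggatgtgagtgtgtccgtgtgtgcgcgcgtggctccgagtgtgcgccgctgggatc

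In Cxcl1 the capitals are 2 NF-kB motif stretches, in Cxcl10 an interferon element followed by 2 NF-kB motifs, and in Cxcl14 a STAT motif followed by an interferon element. RefSeq gave a promoter (250 bases before and 50 after the start) for 24 of the 34 ligands. The NF-kB motif was in 6 of the 24 (Ccl20, Cxcl3, Cxcl1, Cxcl2, Cxcl10 and Ccl9) and in 5.56% of all 32841 promoters. The interferon element was in 3 (Ccl19, Cxcl10 and Cxcl14) and in 3.44% of all promoters, and the STAT motif in 2 (Ccl17 and Cxcl14) and in 8.30%. The tighter form TTCCNGGAA was in none of the 24 and in 1.15% of all promoters. The promoter of Cxcl9, which rose in IL-6 STAT3-knockout cells, held none of these motifs. A match is a run of letters, not a shown binding site.

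With the IL6 plasmid, the ligands that rose in hepatocytes included Cxcl14 and Cxcl1, which in IL-6 STAT3-knockout cells overlapped control, while Cxcl9 rose there. With DDC, the ligands that rose included Ccl2, Ccl7 and Cxcl10. Against GFP, 9 of the 22 tested ligands rose with IL-6 and 1 fell, where 25.9% of all 14339 genes were called, 13.7% higher and 12.2% lower. The median log2 fold change of the 22 was 2.61 (2.70 with genes at 0 counts set at their bound), beside 0.04 over all genes. The filter kept genes with enough counts in some libraries, so ligands near 0 in GFP were tested because other groups held more. Ccl20, Cxcl5, Cxcl13, Cxcl17 and Ppbp, with 0 or 1 count in GFP, could hardly fall against it. Part of the upward lean against GFP, and of the downward lean in IL-6 STAT3-knockout against IL-6 cells, was therefore set by the filter. In IL-6 STAT3-knockout against IL-6 hepatocytes, 8 fell and 2 rose (median -1.13, all genes 0.00), where 13.4% of all genes were called lower and 13% higher. Against GFP, 1 rose in IL-6 STAT3-knockout cells (median 1.22, or 1.02 without pairs at 3 counts or fewer and with bounds), where 3.12% of all genes were called, 2.26% higher and 0.865% lower. With DDC, 7 rose and none fell (median 2.11, all genes 0.02), where 10.4% of all genes were called higher and 8.29% lower. In DDC STAT3-knockout against DDC hepatocytes, edgeR called none of the 22 ligands and none of all genes (0%). At an unadjusted p under 0.05 it had 1 ligand and 803 genes there, and DESeq2 called 0 ligands and 15 genes. The comparisons with GFP share the same 2 control libraries. Without GFP replicate 1 or 2, calls fell from 10 to 4 or 3 for IL-6, from 7 to 1 or 1 for DDC, and from 1 to 0 or 0 for IL-6 STAT3-knockout.

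**Figure D1:**
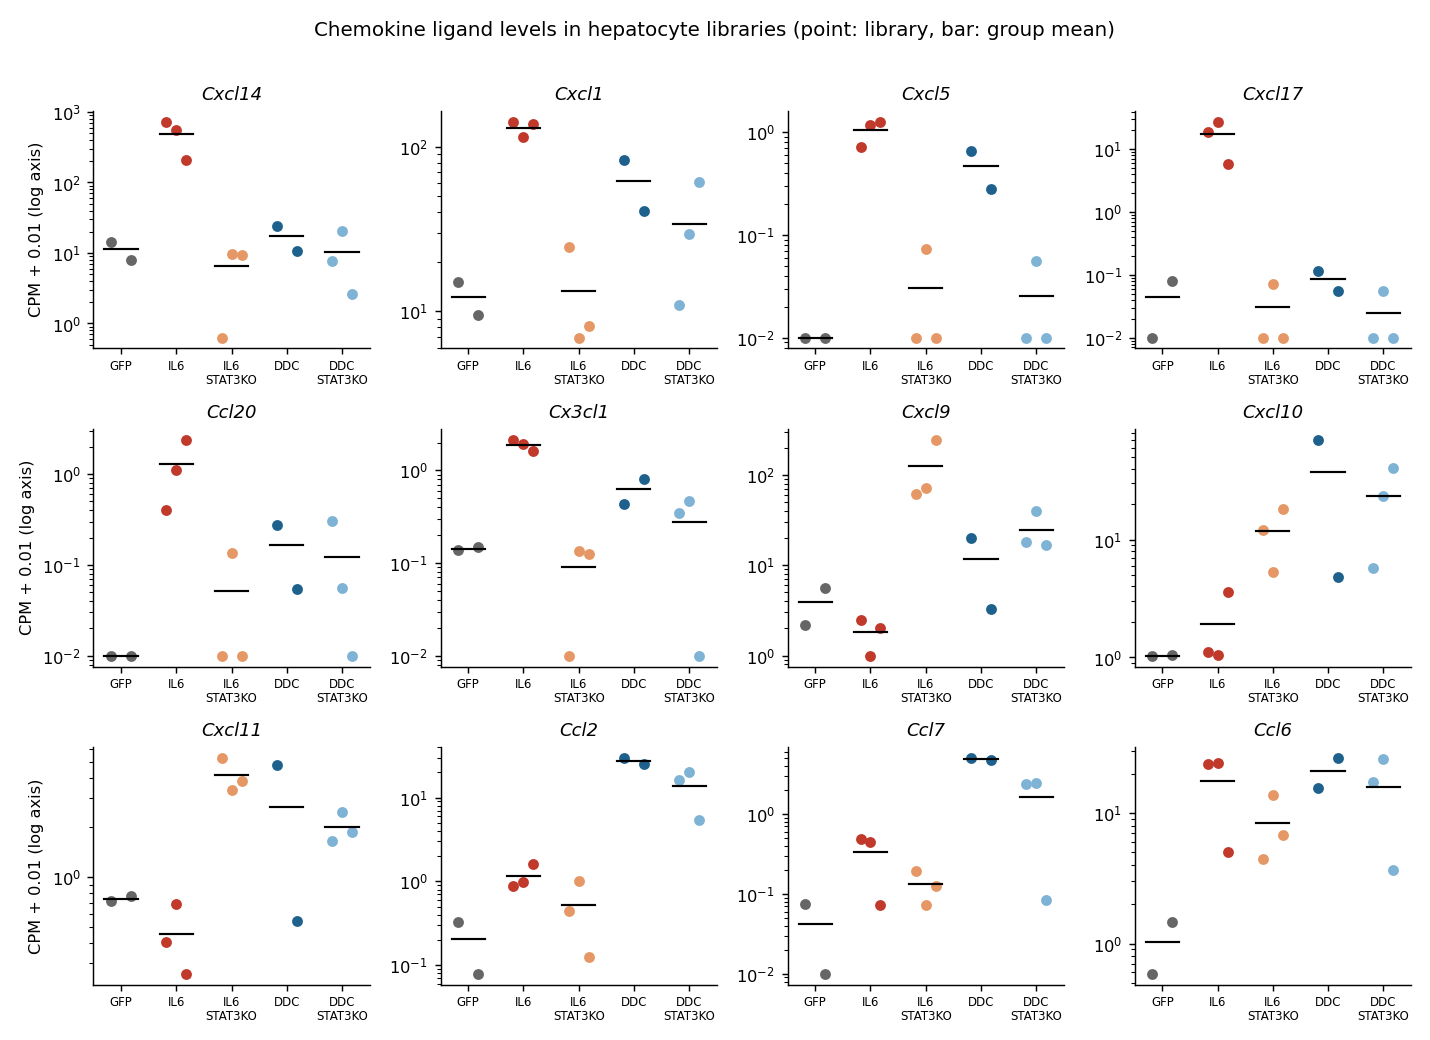
Levels of 12 ligands in hepatocytes (CPM + 0.01, log axis) by group, where each point is 1 library and each bar a group mean. Cxcl14 and Cxcl17 are highest in the 3 IL-6 libraries, Cxcl9 in the 3 IL-6 STAT3-knockout libraries and Ccl2 in the 2 DDC libraries.

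Of the neutrophil-attracting CXC ligands, Cxcl1, Cxcl5 and Ppbp rose with IL-6, and Cxcl1 and Cxcl5 also with DDC. Cxcl1 stood at 15.1 and 9.42 CPM in GFP, at 142, 114 and 137 CPM in IL-6 (131 ± 14.9, SD, n = 3), at 24.7, 6.90 and 8.17 CPM in IL-6 STAT3-knockout, at 82.7 and 40.8 CPM in DDC and at 10.9, 29.6 and 61.0 CPM in DDC STAT3-knockout libraries. Every IL-6 library lay above every library of the other groups, and the DDC groups overlapped. The log2 fold change was 3.42 ± 0.74 (SE, adjusted p = 0.00556) for IL-6 against GFP, -3.31 ± 0.62 (adjusted p = 0.00221) for IL-6 STAT3-knockout against IL-6 and 2.33 ± 0.73 (adjusted p = 0.0449) for DDC against GFP. Without GFP replicate 2 the IL-6 call was lost (3.12, adjusted p = 0.069), and without IL-6 STAT3-knockout replicate 1 the knockout value was -4.12. The DDC call was lost without any 1 of its 4 libraries, with 1.73 (adjusted p = 0.201) without DDC replicate 1. IL-6 STAT3-knockout and GFP values overlapped (0.11 ± 0.65, adjusted p = 0.954), as did DDC STAT3-knockout and DDC values (-0.87 ± 0.62, adjusted p = 0.854).

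The other members of that group were low. Cxcl5, an epithelial ligand of CXCR2, had no count in either GFP library, 0.710, 1.17 and 1.25 CPM in IL-6 and 0, 0.0621 and 0 CPM in IL-6 STAT3-knockout libraries. It was at least 10.7-fold higher in IL-6 than in GFP cells, taking 3 counts over the control group as the floor (adjusted p = 0.00462). It was lower in IL-6 STAT3-knockout than in IL-6 cells by a ratio of 52.8 (95% counting interval 9.03 to 2128, adjusted p = 0.00257). In DDC it had 0.636 and 0.267 CPM, at least 4.38-fold above GFP (adjusted p = 0.0261, lost without any 1 of the 4 libraries, up to 0.124, and with only the compared groups, 0.0601). DDC STAT3-knockout libraries had 0, 0.0454 and 0 CPM of Cxcl5, a ratio of 24.4 below DDC (3.86 to 1018, unadjusted p = 0.00218, adjusted p = 0.853). Intervals and floors cover counting error only.

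Ppbp, a platelet CXC ligand, had no count in GFP and 1.42, 1.11 and 0.374 CPM in IL-6 libraries, at least 9.40-fold higher (adjusted p = 0.0126). It was lower by a ratio of 15.4 in IL-6 STAT3-knockout cells (4.92 to 77.6, adjusted p = 0.0167). The first call was lost without either GFP library (adjusted p = 0.0786 and 0.0739) and the second without IL-6 replicate 1 or 2 or knockout replicate 1 or 3 (up to 0.0622). Summed platelet markers were 4.55 to 5.76 CPM in IL-6 and 1.5 to 3.86 CPM in all other hepatocyte libraries, and their part in the result was not tested. Cxcl2 had 0.128 and 0.344 CPM in GFP, 0.632, 1.97 and 2.06 in IL-6 and 0.248, 0.186 and 0.117 CPM in IL-6 STAT3-knockout libraries. It was called lower in the last against IL-6 (-3.05 ± 0.92, adjusted p = 0.0288) but not higher in IL-6 against GFP (2.70, adjusted p = 0.0787). The first of these was lost without any of 5 of the 6 libraries, with up to 0.103. Pf4, a platelet ligand without neutrophil activity through CXCR2, stood at 0.0619 to 0.772 CPM over all 13 libraries.

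Neutrophil markers were also higher in IL-6 than in GFP libraries. Within the IL-6 group Ppbp was lowest where these markers were lowest, while Cxcl1 and Cxcl5 were not. Of 8, 4 were tested and 3 rose with IL-6, and the 8 summed to 13, 7.40 and 1.12 CPM in IL-6 against 0.128 and 0.206 CPM in GFP and 0.433 to 2.51 CPM in the other hepatocyte libraries. Over all genes, 13.7% were called higher with IL-6. S100a8 was at 0 in both GFP libraries and at 4.11, 2.77 and 0.437 CPM in IL-6. IL-6 replicate 3, with the fewest neutrophil markers of its group, had Cxcl1 at 137 CPM and Cxcl5 at 1.25 CPM, within or above the levels of replicates 1 and 2. The part of neutrophils in these results was not tested. Cxcr2, the receptor of these ligands, had no row in the hepatocyte table.

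Cxcl14, a CXC ligand made by many epithelia, showed the highest level any ligand reached in hepatocytes. It stood at 14.5 and 8.05 CPM in GFP, at 727, 546 and 211 CPM in IL-6 (494 ± 262, SD, n = 3), at 0.619, 9.63 and 9.22 CPM in IL-6 STAT3-knockout, at 24.4 and 10.7 in DDC and at 7.79, 20.5 and 2.62 CPM in DDC STAT3-knockout libraries. The lowest IL-6 library, replicate 3, was above every library of the other 4 groups. The log2 fold change was 5.45 ± 1.15 for IL-6 against GFP (adjusted p = 0.00494, lost without GFP replicate 2 at 0.0627). For IL-6 STAT3-knockout against IL-6 it was -6.25 ± 1.00 (adjusted p = 0.000791). No other comparison called it, with -0.79 (adjusted p = 0.687) for IL-6 STAT3-knockout against GFP, 0.64 (0.685) for DDC against GFP and -0.75 (0.895) for DDC STAT3-knockout against DDC.

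Cxcl17, a mucosal CXC ligand, had 1 count over both GFP libraries and 1 count over the 3 IL-6 STAT3-knockout libraries, and stood at 19.1, 27.5 and 5.93 CPM in IL-6. The ratio was 526 over GFP (94.1 to 20789, adjusted p = 0.000176) and 861 over IL-6 STAT3-knockout (154 to 34049, adjusted p = 3.17e-05), and both calls held without any 1 library. DDC and DDC STAT3-knockout libraries had 0 to 0.106 CPM. Ccl20, the ligand of CCR6, had no count in GFP and 0.395, 1.11 and 2.37 CPM in IL-6, at least 13.7-fold higher (adjusted p = 0.0206). It was lower in IL-6 STAT3-knockout cells by a ratio of 33.5 (8.89 to 283, adjusted p = 0.0176). Both Ccl20 calls were lost in part of the reduced sets, without either GFP library (up to 0.112) and without IL-6 replicate 3 or knockout replicate 1 or 3 (up to 0.0692). Epcam, a bile duct marker, was at 0 in GFP and IL-6 STAT3-knockout and at 0.801 to 1.82 CPM in IL-6 libraries. The sum of the 5 bile duct markers was 0 in GFP, 2.53 to 3.81 CPM in IL-6 and 0.117 to 0.497 CPM in IL-6 STAT3-knockout libraries, and its part in these results was not tested.

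Cx3cl1, the membrane-bound ligand of CX3CR1, stood at 0.128 and 0.138 CPM in GFP, 2.13, 1.91 and 1.62 in IL-6, and 0, 0.124 and 0.117 CPM in IL-6 STAT3-knockout libraries. It rose by 3.76 ± 0.99 with IL-6 (log2, adjusted p = 0.0158) and differed by -4.43 ± 0.89 between IL-6 STAT3-knockout and IL-6 (adjusted p = 0.00325). The rise was lost without either GFP library (0.114 and 0.105). Cxcl13, which draws B cells through CXCR5, had 1 count in GFP and 2.05, 3.27 and 0.499 CPM in IL-6, a ratio of 58.4 (10.2 to 2333, adjusted p = 0.0115, lost without either GFP library at 0.104 and 0.0553). It was not called between IL-6 STAT3-knockout and IL-6 (-1.86, adjusted p = 0.119). Ccl25, the ligand of CCR9, was the ligand that fell, from 6.21 and 4.47 CPM in GFP to 2.61, 2.34 and 2.50 CPM in IL-6 (-1.11 ± 0.27, adjusted p = 0.0111, lost without GFP replicate 1 at 0.134). Its exons overlap those of Elavl1 on the opposite strand, and the library kit does not mark strand.

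Of the interferon-inducible ligands of CXCR3, Cxcl9 and Cxcl11 rose in IL-6 STAT3-knockout against IL-6 hepatocytes, and Cxcl10 was not called there. Cxcl9 stood at 2.18 and 5.57 CPM in GFP, 2.45, 0.986 and 2.00 in IL-6, 62.0, 72.3 and 244 in IL-6 STAT3-knockout (126 ± 102, SD, n = 3), 19.99 and 3.30 in DDC and 18.3, 39.3 and 16.9 CPM in DDC STAT3-knockout libraries. The lowest IL-6 STAT3-knockout library lay above all others. Cxcl9 rose by 6.14 ± 0.84 against IL-6 (adjusted p = 0.000291) and by 5.03 ± 0.94 against GFP (adjusted p = 0.0125). The latter call was lost without GFP replicate 1 (4.50, 0.181) or 2 (5.86, 0.103), and without knockout replicate 3 the values were 5.22 and 4.12, both still called. Cxcl9 was not called with DDC (1.58, adjusted p = 0.217) or in DDC STAT3-knockout against DDC (1.10, 0.854).

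Cxcl11 stood at 0.704 and 0.757 CPM in GFP, 0.395, 0.678 and 0.250 in IL-6, and 5.26, 3.35 and 3.79 CPM in IL-6 STAT3-knockout libraries. It rose by 3.20 ± 0.68 in the last against IL-6 (adjusted p = 0.00474) and differed by 2.49 from GFP without a call (adjusted p = 0.101). Cxcl10 stood at 1.02 and 1.03 CPM in GFP, 1.11, 1.05 and 3.56 in IL-6, 12, 5.34 and 18 in IL-6 STAT3-knockout, 70.1 and 4.77 in DDC and 5.71, 23.6 and 40.7 CPM in DDC STAT3-knockout libraries. It was not called between IL-6 STAT3-knockout and IL-6 (2.61 ± 0.95, adjusted p = 0.0607) or GFP (3.51 ± 1.19, 0.135), and DESeq2 called both (0.0293 and 0.0256). With DDC, Cxcl10 rose by 5.17 ± 1.29 (adjusted p = 0.0184). That value rests on DDC replicate 1, and without it was 2.21 (adjusted p = 0.197), against 6.08 without DDC replicate 2. The call was also lost without either GFP library (0.118). Cxcl10 and Cxcl11 share exons with Art3 and Gm2673 on the opposite strand.

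Of the 18 listed genes of the interferon-gamma response, 17 were tested, and 14 rose and 2 fell in IL-6 STAT3-knockout against IL-6 cells (median 2.13). Against GFP, 15 rose and none fell (median 3.68). Over all genes, 13% were called higher and 13.4% lower against IL-6, and 2.26% higher and 0.865% lower against GFP. The list was chosen with earlier results of these data known, so its counts are a description and not a test. Among the listed genes, Igtp, an interferon-induced GTPase, was at 875 CPM in IL-6 STAT3-knockout and 19.5 CPM in IL-6 cells (5.49 ± 0.33, adjusted p = 1.84e-06). The list summed to 1691, 2494 and 2868 CPM in IL-6 STAT3-knockout libraries and to 183 to 339.6 CPM in the other 10.

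**Figure D2:**
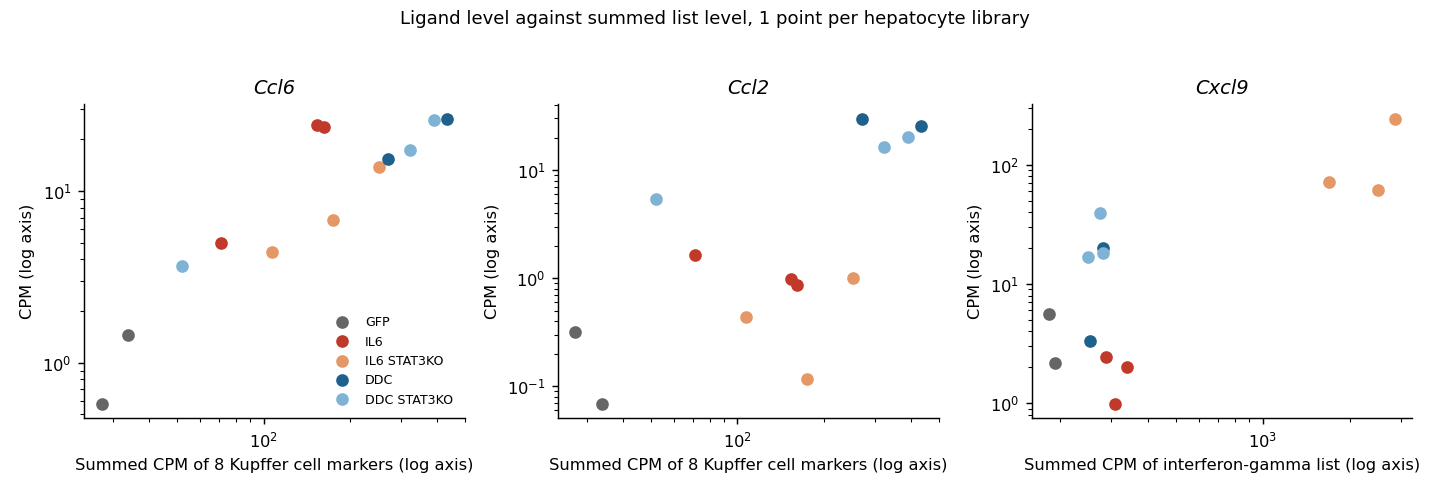
Ccl6 and Ccl2 against the summed Kupffer cell markers, and Cxcl9 against the summed interferon-gamma response genes, in each hepatocyte library (CPM, log axes, 1 point per library). The 3 IL-6 STAT3-knockout libraries lie apart in the Cxcl9 panel, and the 5 libraries of the DDC groups lie above the others in the Ccl2 panel.

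Of the monocyte-attracting CC ligands, Ccl2 and Ccl7 rose with DDC. Ccl2, the main ligand of CCR2, stood at 0.320 and 0.0688 CPM in GFP, 0.868, 0.986 and 1.62 in IL-6, 0.433, 0.994 and 0.117 in IL-6 STAT3-knockout, 29.9 and 25.4 in DDC and 16.3, 20.1 and 5.39 CPM in DDC STAT3-knockout libraries. Every DDC-fed library lay above every other. Ccl2 rose by 7.07 ± 0.91 with DDC (adjusted p = 0.00103), and it was called without any 1 library (8.5 without GFP replicate 1, 6.39 without GFP replicate 2). It was not called with IL-6 (2.52, adjusted p = 0.0585). In DDC STAT3-knockout against DDC it was -0.98 ± 0.56 (adjusted p = 0.853), with groups that did not overlap. Ccl7, the neighbour of Ccl2 and also a CCR2 ligand, had 1 count in GFP, 5.04 and 4.68 CPM in DDC and 2.37, 2.41 and 0.0748 CPM in DDC STAT3-knockout libraries. The DDC ratio was 146 (25.9 to 5797, adjusted p = 0.00957, lost without either GFP library at 0.0604 and 0.0864).

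Ccl6, a CCR1 ligand of myeloid cells, stood at 0.576 and 1.44 CPM in GFP, 23.6, 24.2 and 4.99 in IL-6, 4.40, 13.8 and 6.77 in IL-6 STAT3-knockout, 15.4 and 26.4 in DDC and 17.3, 25.9 and 3.67 CPM in DDC STAT3-knockout libraries. It rose with IL-6 (4.12 ± 0.99, adjusted p = 0.00981) and with DDC (4.37 ± 1.02, adjusted p = 0.0144). The IL-6 call was lost without GFP replicate 1 (3.60, 0.0981) or 2 (4.91, 0.051), and the DDC call without GFP replicate 1 (3.85, 0.113) or 2 (5.14, 0.0735) or DDC replicate 2 (3.93, 0.0669). Ccl6 was not called in IL-6 STAT3-knockout against IL-6 (-1.08 ± 0.70, adjusted p = 0.288) or against GFP (3.04, 0.113), nor in DDC STAT3-knockout against DDC (-0.41 ± 0.75, 0.93). Cxcl16, the membrane-bound ligand of CXCR6, went from 1.28 and 1.65 CPM in GFP to 7.32 and 9.71 CPM in DDC (2.53 ± 0.66, adjusted p = 0.0221, lost without any 1 of the 4 libraries, up to 0.137). Its exons overlap Zmynd15 on the opposite strand.

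Kupffer cell markers rose with DDC, as did Ccl6, Cxcl16 and Ccl2, but did not follow these ligands in every library. All 8 rose with DDC (median 3.39) and 4 of the 8 with IL-6 (median 2.24), and none was called between IL-6 STAT3-knockout and IL-6 cells. Over all genes, 10.4% were called higher with DDC and 13.7% with IL-6, and 26.4% were called between IL-6 STAT3-knockout and IL-6 cells. IL-6 replicate 3 and DDC STAT3-knockout replicate 3 had the fewest Kupffer markers of their groups (71.2 and 52.0 CPM) and also the least Ccl6 (4.99 and 3.67 CPM). DDC STAT3-knockout replicate 3 also had the least Ccl2 and Ccl7 of its group. Other libraries went the other way. IL-6 STAT3-knockout libraries had more Kupffer markers than DDC STAT3-knockout replicate 3, but 0.117 to 0.994 CPM of Ccl2 against its 5.39 CPM. Their marker sums reached above those of IL-6 libraries. Their Ccl6 stood at 4.40 to 13.8 CPM, against 23.6 and 24.2 CPM in IL-6 replicates 1 and 2. Sorted DDC macrophages had 2335 and 2495 CPM of Ccl6 with 134 and 147 CPM of Ccl2, while DDC hepatocyte libraries had 15.4 and 26.4 CPM of Ccl6 with 29.9 and 25.4 CPM of Ccl2. The part of these cells in the hepatocyte results was not tested.

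Constitutive ligands carried most of the ligand reads in control hepatocytes. Cxcl12, the ligand of CXCR4, stood at 304 and 228 CPM in GFP, 151, 224 and 179 in IL-6, 172, 222 and 307 in IL-6 STAT3-knockout, 147 and 126 in DDC and 82.6, 147 and 89.2 CPM in DDC STAT3-knockout libraries. DDC and GFP did not overlap, and the difference was not called (-0.96 ± 0.34, adjusted p = 0.0669), though DESeq2 called it (0.0314). The others were -0.53 ± 0.31 (0.224) for IL-6 against GFP, 0.34 (0.405) and -0.19 (0.796) for IL-6 STAT3-knockout against IL-6 and GFP, and -0.36 ± 0.31 (0.864) for DDC STAT3-knockout against DDC. Ccl9, a CCR1 ligand found in rodents, stood at 92.2 and 87.4 CPM in GFP, 139.7, 110.5 and 50.8 in IL-6, 58.9, 276 and 139 in IL-6 STAT3-knockout, 163 and 79.5 in DDC and 112, 148 and 146 CPM in DDC STAT3-knockout libraries. No comparison called it: the log2 differences were 0.16, 0.65 and 0.81 in the IL-6 comparisons (adjusted p = 0.861, 0.362 and 0.462) and 0.43 and 0.16 in the DDC comparisons (0.643 and 0.967).

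The remaining ligands were near the lower end of the measured range in hepatocytes. Ccl5 ran from 0 to 0.681 CPM and had no count in the 3 IL-6 libraries, and Ccl24 ran from 0.124 to 1.23 CPM. The 4 that did not pass the filter, Ccl3, Ccl4, Ccl22 and Ccl28, reached at most 0.621, 0.500, 0.424 and 0.395 CPM in any library.

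The knockout contrast differed between the 2 settings for 3 ligands. Taking the contrast under IL-6 minus that under DDC, Cxcl9 differed by 5.03 ± 1.06 (adjusted p = 0.0131), Cxcl14 by -5.49 ± 1.33 (adjusted p = 0.0261) and Cxcl11 by 3.61 ± 0.94 (adjusted p = 0.0349), where 8.28% of all genes were called, 4.2% higher and 4.08% lower. Without DDC replicate 1, none of the 3 was called (3.22, -6.21 and 1.32). That library had 19.99 CPM of Cxcl9 and 4.77 CPM of Cxcl11, against 3.30 and 0.535 CPM in DDC replicate 2. Cxcl14 was lost without any of 5 libraries, up to 0.149 without DDC replicate 2, and was -4.49 without DDC STAT3-knockout replicate 2. Cxcl11 was lost without any of 7 libraries and with only the compared groups fitted (3.62, 0.0518). Without DDC replicate 2, Cxcl9 was 5.84 and Cxcl11 4.48, and without IL-6 STAT3-knockout replicate 3 Cxcl9 was 4.12. Cxcl1 (-2.43, adjusted p = 0.112), Cxcl10 (3.30, 0.147) and Cxcl17 (-7.62, 0.158) were not called, nor were Cxcl12 (0.70), Ccl9 (0.49), Ccl6 (-0.67) and Ccl2 (-0.20), with adjusted p from 0.332 to 0.922. The IL-6 contrast also spans wild-type and floxed genotypes, while the DDC contrast does not.

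**Figure D3:**
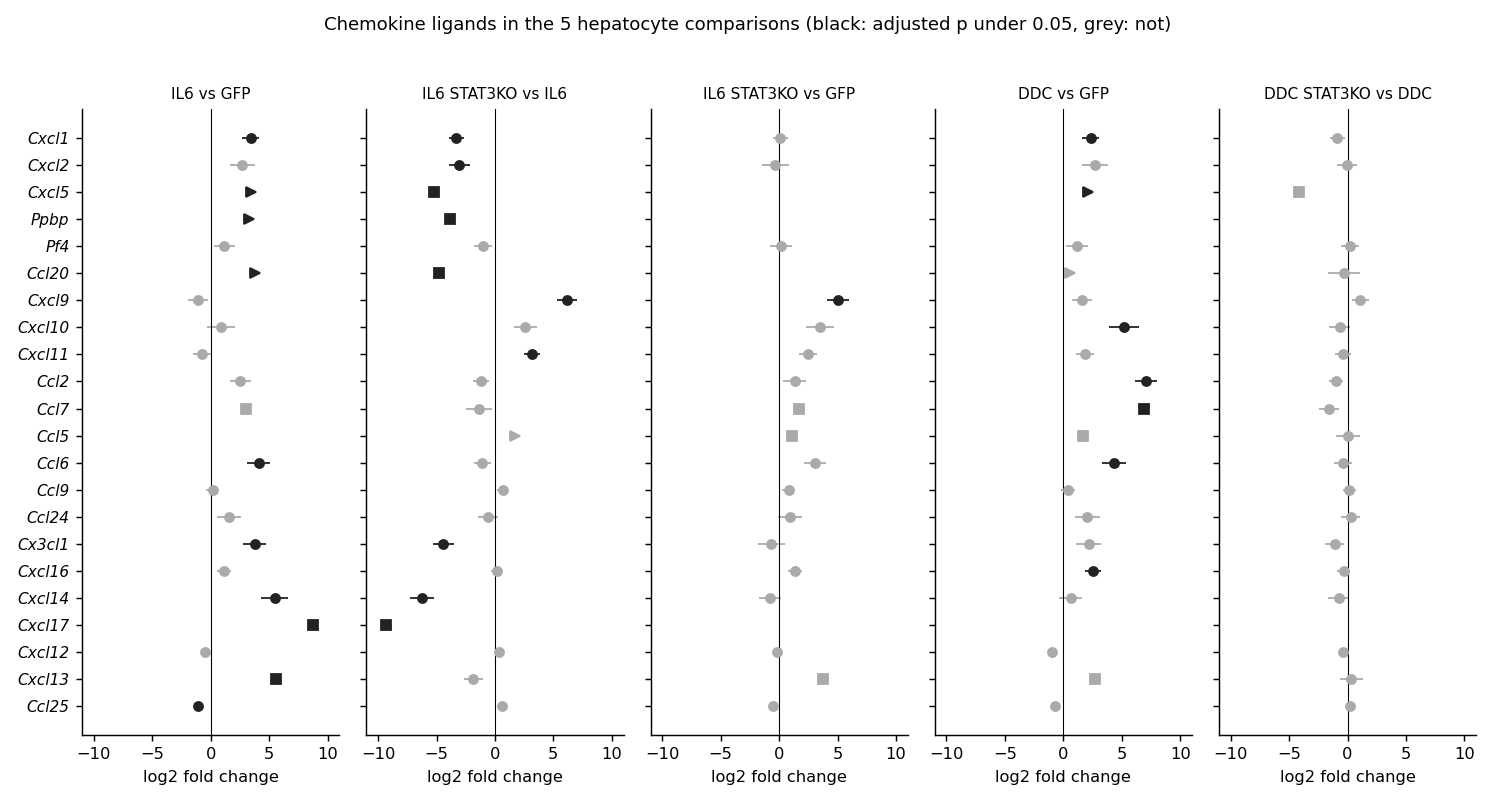
Log2 fold change of each ligand in the hepatocyte comparisons. Circles are fitted values with SE, arrowheads are lower bounds where a group had no counts, squares are genes with 1 to 3 counts in a group, and black marks an adjusted p under 0.05. Black marks lie right of 0 with DDC and, apart from Ccl25, with IL-6 against GFP, and none is black for DDC STAT3-knockout against DDC.

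Other chemokine system genes were read from lists, which were chosen with earlier results of these data known, so their counts are a description and not a test. Over all genes, 13.7% were called higher and 12.2% lower with IL-6, and 10.4% higher and 8.29% lower with DDC. In IL-6 STAT3-knockout cells, 13% were higher and 13.4% lower against IL-6, and 2.26% higher and 0.865% lower against GFP. NF-kB and proinflammatory genes, 16 of 18 tested, had 9 higher and none lower with IL-6 (median 1.43), none higher and 6 lower in IL-6 STAT3-knockout against IL-6 (median -0.90), none called against GFP, and 7 higher and none lower with DDC (median 1.47). Icam1, an adhesion molecule for leukocytes, was at 5.39 CPM in GFP, 64.4 in IL-6 (3.58 ± 0.39, adjusted p = 9.44e-05) and 42.9 CPM in DDC (2.99 ± 0.40, adjusted p = 0.00117). Socs1, a feedback inhibitor of cytokine signalling, was at 0.231 CPM in GFP and 23.4 CPM in IL-6 (6.61 ± 0.69, adjusted p = 7.08e-05). Of 23 chemokine receptors, 11 were tested, with 1 higher with IL-6, 1 in each IL-6 STAT3-knockout comparison and 6 with DDC, and none lower. Those with DDC included Ccr2, the receptor of Ccl2 and Ccl7, at 2.41 against 0.103 CPM (4.49 ± 1.34, adjusted p = 0.037). Of 6 ligand-processing enzymes, Dpp4, a peptidase that trims the ends of CXCR3 ligands and Cxcl12, fell with IL-6 from 196 to 73.3 CPM (-1.42 ± 0.23, adjusted p = 0.001) and was at 170 CPM in IL-6 STAT3-knockout cells (1.22 ± 0.21, adjusted p = 0.00128).

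Sorted immune cells carried more ligand reads than hepatocytes, with the tables normalised separately: 1802 to 6984 CPM summed over the 34 against 292 to 1224 CPM over the 26 in hepatocytes. Each DDC cell type was compared with the mean of the other DDC cell types, taken over log2 group means, so a fold change need not equal the ratio of the CPM means given. Macrophages had 4 ligands called higher and none lower, where 0.695% of all 27759 genes were called, 0.566% higher and 0.13% lower. Neutrophils had 2 higher and 1 lower, where 3.95% were called (3.26% higher and 0.684% lower). T cells had 2 higher, where 1.21% were called (0.911% higher and 0.303% lower), and monocytes 1 higher and 3 lower, where 1.41% were called (0.418% higher and 0.991% lower). Ligand medians were 1.08, -0.92, 0.50 and -0.50, beside -0.01, 0.15, -0.26 and 0.27 over all genes.

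**Figure D4:**
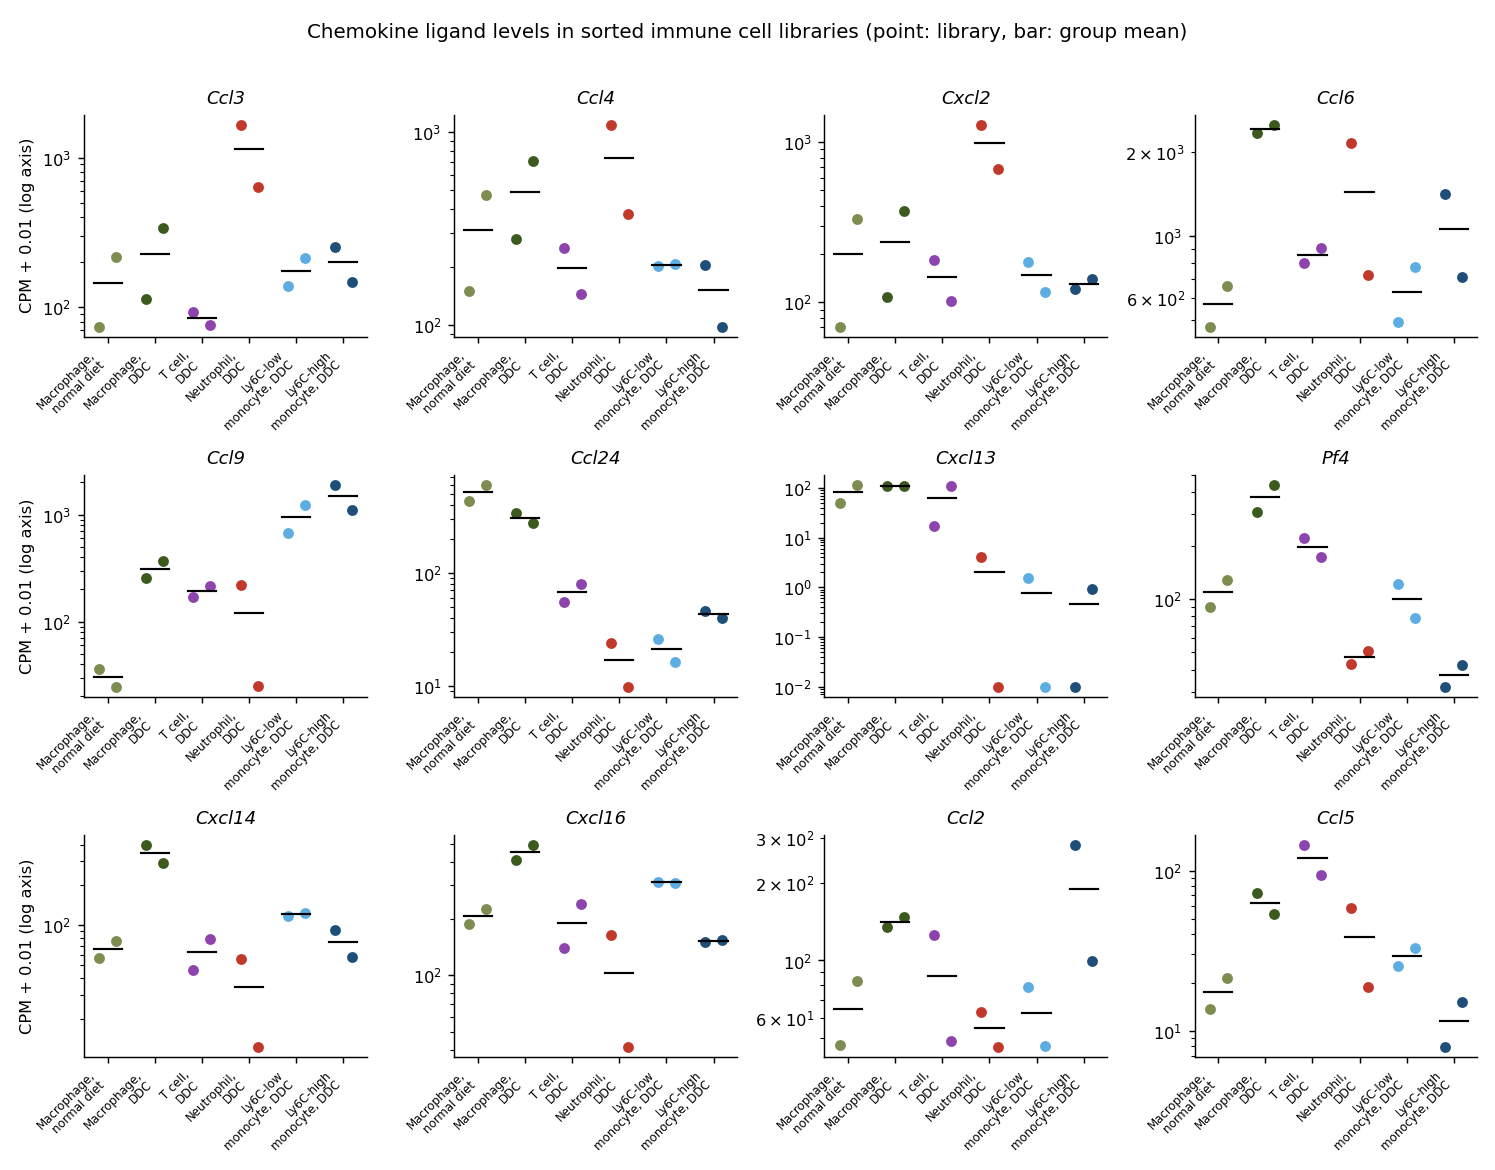
Levels of 12 ligands in sorted immune cells (CPM + 0.01, log axis) by group, where each point is 1 library and each bar a group mean. Ccl3 and Cxcl2 are highest in the 2 neutrophil libraries, Ccl9 in the 4 monocyte libraries and Ccl24 in the 4 macrophage libraries.

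The CCR1 ligands Ccl6 and Ccl9 were abundant in myeloid cells. Ccl6 stood at 2335 and 2495 CPM in DDC macrophages, 474 and 664 in normal-diet macrophages, 801 and 905 in T cells, 2153 and 725 in neutrophils, 493 and 773 in Ly6C-low and 1415 and 711 CPM in Ly6C-high monocytes. It was not called in any comparison (macrophages 1.34, adjusted p = 0.205, neutrophils 0.41, 0.619, T cells -0.54, 0.585, monocytes -0.81, 0.365). Ccl9 stood at 674 and 1235 CPM in Ly6C-low and 1889.9 and 1097 in Ly6C-high monocytes, against 257 and 370.2 in DDC macrophages, 35.8 and 24.6 in normal-diet macrophages, 171 and 216 in T cells and 218 and 25.3 CPM in neutrophils. All 4 monocyte libraries lay above the other 8. Ccl9 was higher in monocytes by 2.62 ± 0.44 (adjusted p = 0.0046), a call kept in all 17 alternatives, and was 3.32 without neutrophil replicate 1.

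Ccl3 and Ccl4, ligands that are induced quickly in activated myeloid cells, were highest in neutrophils. Ccl3 stood at 1653 and 636 CPM there, against 113 and 338 in DDC macrophages, 74.0 and 215 in normal-diet macrophages, 93.4 and 76.3 in T cells, 139 and 212 in Ly6C-low and 253 and 148 CPM in Ly6C-high monocytes. It was higher in neutrophils by 2.83 ± 0.44 (adjusted p = 0.0011), or by 2.10 without neutrophil replicate 1, and -1.86 in T cells (adjusted p = 0.12). Ccl4 stood at 1094 and 377 CPM in neutrophils, 278 and 708 in DDC macrophages, 151 and 473 in normal-diet macrophages, 252 and 145 in T cells and 98.1 to 207 CPM in the 4 monocyte libraries. The groups overlapped and Ccl4 was not called in neutrophils (1.65, adjusted p = 0.0549). Ccl5, a T cell and NK cell product, stood at 144 and 94.2 CPM in T cells, 72.5 and 53.6 in DDC macrophages, 13.6 and 21.5 in normal-diet macrophages, 58.2 and 18.8 in neutrophils and 7.92 to 32.8 CPM in monocytes. It was higher in T cells by 1.99 ± 0.45 (adjusted p = 0.039) and differed by -1.85 ± 0.44 in monocytes (adjusted p = 0.0438). The T cell call was lost without any of 6 libraries, with 1.65 (0.252) without T replicate 1. The monocyte call was lost without any of 7 libraries, up to 0.273 without Ly6C-high replicate 1, and without both T libraries (-1.43, 0.201).

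No CCR2 ligand was called between the cell types, in tests that recovered 10 to 24 of 100 simulated 4-fold changes. Ccl2 stood at 134 and 147 CPM in DDC macrophages, 46.8 and 83.2 in normal-diet macrophages, 126 and 48.7 in T cells, 63.2 and 46.2 in neutrophils, 78.6 and 46.7 in Ly6C-low and 280.3 and 99.2 CPM in Ly6C-high monocytes. No comparison called Ccl2 in the fit of all immune libraries. With edgeR fitted on the 2 monocyte groups alone, it was called higher in Ly6C-high (1.54, adjusted p = 0.0215). Ccl7 stood at 86.2 and 6.59 CPM in the T cell libraries, which differed the most, and at 0.209 to 58.8 CPM elsewhere. Ccl12 reached 17.6 CPM in DDC macrophages and 15.8 CPM in T cells. Their receptor Ccr2 was at 1062 CPM in monocytes and 173 CPM in the other DDC cells (2.92 ± 0.36, adjusted p = 0.000404).

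Ccl24, an eosinophil attractant that acts on CCR3, was a macrophage ligand. It stood at 335 and 275 CPM in DDC and 433 and 597 CPM in normal-diet macrophages, and at 55.6 and 79.2 in T cells, 24.0 and 9.83 in neutrophils, 26.0 and 16.3 in Ly6C-low and 46.2 and 39.7 CPM in Ly6C-high monocytes. It was higher in DDC macrophages by 3.26 ± 0.35 (adjusted p = 5.94e-05, kept in all 17 alternatives) and lower in neutrophils by -1.95 ± 0.48 (adjusted p = 0.0318). The neutrophil call was lost without any of 5 libraries (up to 0.154 without neutrophil replicate 2, where it was -1.45) and was -2.62 without neutrophil replicate 1. Ccr3, its receptor, was at 207 CPM in DDC macrophages and 24.9 CPM in the other DDC cells (4.50 ± 0.44, adjusted p = 2.55e-05). Of its family, Ccl8 reached 11.4 CPM and Ccl11 reached 2.61 CPM.

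Among neutrophil attractants, Cxcl2 was highest in the neutrophils themselves. It stood at 1278 and 683 CPM there, against 109 and 369.9 in DDC macrophages, 70.4 and 332 in normal-diet macrophages, 184 and 102 in T cells and 117 to 179 CPM in monocytes. The log2 difference was 2.61 ± 0.47 (adjusted p = 0.00423, kept in all 17 alternatives). Cxcr2, the receptor of Cxcl2, was at 805 CPM in neutrophils and 0.903 CPM in the other DDC cells (11.18 ± 0.97, adjusted p = 4.13e-06). Cxcl3 was at 6.66 and 4.60 CPM in neutrophils and at most 1.43 CPM elsewhere, without a call (5.10, adjusted p = 0.0659). Cxcl1, the ligand that rose in hepatocytes, stood at 57.0 and 138 CPM in DDC macrophages, 9.16 and 60.9 in normal-diet macrophages, 42.2 and 53.6 in T cells, 46.6 and 0.209 in neutrophils and 4.48 to 13.5 CPM in monocytes, with no call (macrophages 2.58, adjusted p = 0.272). In neutrophils its difference was 0.02 and became -6.60 without neutrophil replicate 1. That left only replicate 2, with 1 count of Cxcl1 and 19.0% of all its counts in Gm10800, against 1.64% in replicate 1. Pf4 stood at 309.5 and 440.0 CPM in DDC macrophages, 90.4 and 128 in normal-diet macrophages, 221 and 174 in T cells, 42.9 and 51.0 in neutrophils, 122 and 78.2 in Ly6C-low and 32.0 and 42.6 CPM in Ly6C-high monocytes. It was higher in DDC macrophages by 2.29 ± 0.34 (adjusted p = 0.00157), lost without macrophage replicate 2 (1.95, 0.128). Summed platelet markers were highest in neutrophils (28.3 and 61.9 CPM), where Pf4 was among the lowest, and were 6.17 and 10.3 CPM in DDC macrophages. The part of platelets in the Pf4 result was not tested. Ppbp reached 8.99 CPM, in neutrophils, and Cxcl5 1.23 CPM, in DDC macrophages.

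CXCR3 ligands were low and spread within groups. Cxcl9 stood at 46.1 and 50.5 CPM in T cells and 3.14 to 40.9 CPM in the other 10 libraries, without a call (T cells 1.35, adjusted p = 0.28). Cxcl10 ran from 0.0804 to 52.9 CPM and Cxcl11 from 0 to 5.84 CPM.

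Cxcl13 and Cxcl14 were called higher in DDC macrophages, and Cxcl12 and Cxcl13 lower in monocytes. Cxcl13 stood at 109 and 109.7 CPM in DDC macrophages, 49.0 and 114 in normal-diet macrophages, 17.4 and 108 in T cells, 4.05 and 0 in neutrophils and 0 to 1.51 CPM in monocytes. It was higher in DDC macrophages by 5.34 ± 0.85 (adjusted p = 0.00302) and in T cells by 4.34 ± 0.84 (adjusted p = 0.0194), and differed by -5.29 ± 1.04 in monocytes (adjusted p = 0.0147). The T cell range overlapped that of the other cells, and the call was lost without T replicate 2 (2.48, 0.148), which had more Kupffer cell markers than T replicate 1 (11104 against 6199 CPM). It was also lost without either DDC macrophage library or Ly6C-high replicate 1 (up to 0.0893). DESeq2 called Cxcl13 neither in macrophages (0.0573) nor in T cells (0.0669). In monocytes the call was lost without neutrophil replicate 1 (-2.81), Ly6C-low replicate 2 (-4.80) or Ly6C-high replicate 1 (-4.83). In macrophages it ranged from 5.03 to 7.13 over the alternatives, the highest without neutrophil replicate 1. Leaving out Ly6C-low replicate 1 gave 6.82 and 5.82 in macrophages and T cells and -8.24 in monocytes, leaving out Ly6C-high replicate 2 gave 6.61, 5.68 and -7.91, and the T cell value was 6.21 without neutrophil replicate 1 and 5.12 without T replicate 1.

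Cxcl14 stood at 396 and 289.9 CPM in DDC macrophages, 57.2 and 76.2 in normal-diet macrophages, 46.6 and 78.6 in T cells, 56.2 and 12.3 in neutrophils, 117 and 124 in Ly6C-low and 92.3 and 57.8 CPM in Ly6C-high monocytes. It was higher in DDC macrophages by 2.37 ± 0.42 (adjusted p = 0.00851), lost without macrophage replicate 1 (2.09, 0.327) or 2 (2.52, 0.0762). Cxcl12 stood at 39.8 and 38.9 CPM in DDC macrophages, 26.5 and 27.3 in normal-diet macrophages, 71.9 and 29.6 in T cells, 12.9 and 42.5 in neutrophils, 10.5 and 10.1 in Ly6C-low and 2.09 and 8.61 CPM in Ly6C-high monocytes. It was lower in monocytes by -2.35 ± 0.55 (adjusted p = 0.0413), lost without any of 6 libraries (up to 0.284 without Ly6C-high replicate 1) and without both T libraries (0.0648), and -3.07 without Ly6C-high replicate 2. Stellate cell markers, whose cells are a known source of Cxcl12, summed to 1113 and 1205 CPM in T cells, 466 and 772 in DDC macrophages, 141 and 287 in neutrophils and 32.3 to 154 CPM in monocytes, and their part was not tested. Cxcl16 stood at 409 and 491 CPM in DDC macrophages, 188 and 224 in normal-diet macrophages, 139.9 and 239 in T cells, 163 and 41.6 in neutrophils, 313 and 309 in Ly6C-low and 149 and 154 CPM in Ly6C-high monocytes, with no call (macrophages 1.37, adjusted p = 0.205).

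The ligands tied to dendritic and T cells were low and uneven. Ccl17, a CCR4 ligand, stood at 44.2 and 76.3 CPM in Ly6C-low monocytes, 8.22 and 6.2 in Ly6C-high monocytes, 0 and 63.4 in T cells, 10.8 and 5.65 in neutrophils, 3.82 and 14.2 in DDC and 4.71 and 0 CPM in normal-diet macrophages. Its T cell difference was 1.24 without a call and -9.99 (adjusted p = 0.0383) without T replicate 2. Ccl22, on the same receptor, reached 26.4 CPM, in a Ly6C-low library. Xcl1, which draws XCR1-bearing dendritic cells, was at 22.2 and 6.67 CPM in T cells and at most 6.58 CPM elsewhere, without a call (4.74 ± 1.15, adjusted p = 0.0548), and its exons overlap Gm20743. The other low ligands reached 16.0 CPM (Ccl25), 8.20 (Cxcl17), 7.99 (Ccl28), 7.48 (Ccl20), 4.56 (Cx3cl1), 1.26 (Cxcl15) and 1.16 CPM (Ccl19) in their highest library.

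Between Ly6C-high and Ly6C-low monocytes, edgeR called no ligand and no gene (0%), with 2 ligands and 461 genes at an unadjusted p under 0.05, and DESeq2 called 0 ligands and 36 genes. Ccl2 (1.60, unadjusted p = 0.0194) and Pf4 (-1.42, unadjusted p = 0.0102) were the 2 ligands, both with an adjusted p of 1. Fitted on these 4 libraries alone, Ccl2, Pf4, Ccl17 and Ccl22 were called.

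On DDC against normal diet, macrophages had no ligand called by edgeR, where 0.0252% of all genes were called. At an unadjusted p under 0.05 there were 7 ligands and 2935 genes, and DESeq2 called 3 ligands and 660 genes. Ccl9 was at 313 against 30.2 CPM (3.37 ± 0.75, adjusted p = 0.203), Cxcl14 at 343 against 66.7 (2.36 ± 0.63, 0.325), Ccl6 at 2415 against 569 (2.09 ± 0.57, 0.325) and Pf4 at 375 against 109 CPM (1.78 ± 0.50, 0.325), and each of these did not overlap between the diets. DESeq2 called Ccl9 (2.85, adjusted p = 0.00182), Ccl6 (1.60, 0.0188) and Cxcl14 (1.88, 0.023). Ccl24 was -0.76 ± 0.52 (edgeR adjusted p = 0.506), Ccl5 1.85 (0.438), Ccl2 1.11 (0.46) and Cxcl16 1.13 (0.46). The ligand median was 0.71, beside -0.62 over all genes, which moved to -1.42 on library totals alone. Mmp12, a macrophage protease that cleaves chemokines, was called at 476 against 30.3 CPM (3.98 ± 0.62, adjusted p = 0.0322). Kupffer cell markers summed to 46939 and 40591 CPM on DDC and 20565 and 31991 CPM on normal diet, and their part was not tested.

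Levels per kilobase of exon were used to set different genes side by side, and the ligands with the highest mean shares differed between groups. The length was that of all annotated exons of a gene together, not of the transcripts present. Shares and ranks therefore depend on the annotation. In GFP hepatocytes Cxcl12 and Ccl9 took 40.7% and 37.3% of the summed ligand level. In IL-6 cells Cxcl14 took 58.6% and Cxcl1 18.3%. In IL-6 STAT3-knockout cells Ccl9 took 33.4% and Cxcl9 26.9%, but the highest ligand was Cxcl12, Ccl9 and Cxcl9 in replicates 1, 2 and 3. In DDC cells Ccl9 took 23%, Cxcl1 19.1% and Ccl2 15.2%, and in DDC STAT3-knockout cells Ccl9 took 34.9% and Cxcl1 13.7%. Among immune cells, Ccl6 led in DDC macrophages (32.9%), T cells (24.4%), Ly6C-low (18.6%) and Ly6C-high monocytes (28.2%), Ccl3 in neutrophils (35.5%) and Ccl4 in normal-diet macrophages (22.1%). The 2 libraries of a group had different highest ligands in GFP (Cxcl12, Ccl9), normal-diet macrophages (Ccl24, Ccl4) and Ly6C-low monocytes (Ccl4, Ccl6). These shares are group means and carry no test.

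**Figure D5:**
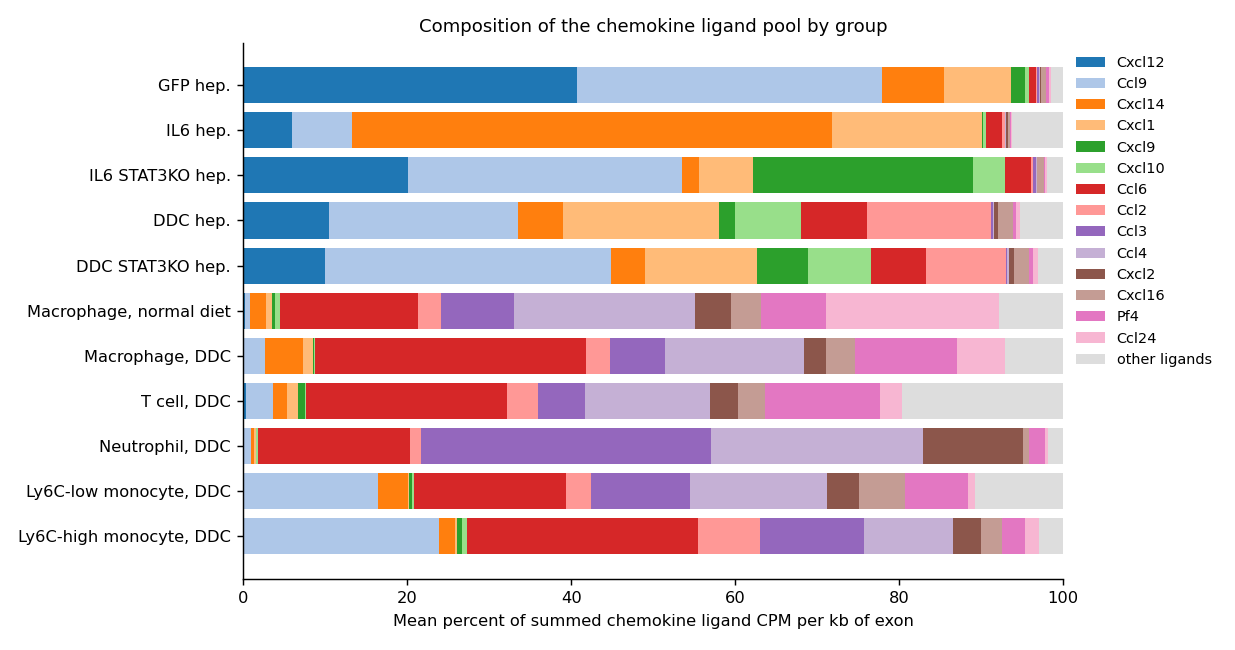
Mean percent of the summed ligand level (CPM per kilobase of exon) taken by 14 ligands and by the rest together in the 5 hepatocyte and 6 immune cell groups, as stacked bars from 0 to 100. Cxcl14 fills most of the IL-6 bar at 58.6%, while Cxcl12 and Ccl9 fill most of the GFP bar.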

How the data were processed

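Per the labels' protocols, FACS-sorted liver cells gave TRIzol-extracted RNA, from which TruSeq RNA libraries were prepared. The authors deposited raw read counts per gene in 1 hepatocyte and 1 immune cell table; per the submitters' processing notes these came from STAR, HTSeq and DESeq2 on mm10, with versions and strand setting not given in the sources used here. Symbols and coordinates came from GENCODE M21. The EGFP row stayed out of library sizes and tests. Each table was fitted whole, with 1 term per group and no covariate, by edgeR 4.0.16 (R 4.3.3, TMM scaling, filterByExpr, quasi-likelihood F tests), leaving 14339 hepatocyte genes (8 residual degrees of freedom, biological coefficient of variation 0.313) and 27759 immune genes (6 and 1.00). The SE is the fold change divided by the square root of F. Replicates of a group differed far beyond sampling noise (chi-square per degree of freedom 27.1 to 201), so none was merged.

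On simulated counts, edgeR recovered 73 of 100 4-fold changes in IL-6 against GFP hepatocytes and 80 of 100 in DDC STAT3-knockout against DDC. It recovered 2 of 100 between macrophage diets and 0 of 100 between monocyte groups. For macrophages, neutrophils, T cells and monocytes against other DDC cells it recovered 10, 12, 18 and 24 of 100. Of 100 2-fold changes it recovered 11 in IL-6 against GFP and 13 in DDC STAT3-knockout against DDC hepatocytes. In the measured DDC STAT3-knockout and DDC libraries, edgeR called none of the 14339 genes. Recovery of a 4-fold change in the ligands themselves was not tested. The members and lists were chosen with earlier results of these data known. Ligands were named where called or at 10 CPM or more in a compared group, and given per library where called in hepatocytes or at 50 CPM or more. Up to 4 genes per comparison were named from other lists, and Ccr2, Ccr3, Dpp4, Epcam and S100a8 were picked after their values were seen. Alternatives were other scalings, no filter, a replicate block, DESeq2 1.42.0, only the compared groups, each library left out and, chosen after seeing the data, both T cell libraries left out.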

Additional observations from a re-analysis of the deposited data

Results flagged for a closer look

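For 3 ligands the STAT3-knockout contrast under IL-6 differed from that under DDC by a test of the difference itself (edgeR interaction, log2). The differences were -5.49 for Cxcl14 (adjusted p = 0.0261), 5.03 for Cxcl9 (adjusted p = 0.0131) and 3.61 for Cxcl11 (adjusted p = 0.0349). None was called without DDC replicate 1, and Cxcl11 was also lost without any of 6 other libraries and with only the compared groups (0.0518). The contrasts under IL-6 were -6.25, 6.14 and 3.20, with no overlap between the groups for any of the 3. Those under DDC were -0.75, 1.10 and -0.40, with overlapping groups.

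In the EGFP transgene row, which no comparison uses, IL-6 replicate 3 had 424 CPM. There were 2.12 and 2.38 CPM in GFP replicates 1 and 2, and 7.08 and 5.06 CPM in IL-6 replicates 1 and 2. The 2 DDC libraries, from mice given AAV-TBG-GFP, had 1309 and 1496 CPM, and the knockout libraries at most 1.32 CPM. Il6 itself stood at 351 CPM in IL-6 replicate 3, at 4.89 CPM in replicate 1 and at 3.20 CPM in replicate 2. In IL-6 STAT3-knockout libraries Il6 was at 0.559 to 1.05 CPM. The labels do not say what the IL6 plasmid carries besides IL6.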

How the results depend on the processing

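Each count of called ligands was recomputed under the alternatives, and those that moved by more than 1.5 times follow. IL-6 STAT3-knockout against GFP hepatocytes went from 1 to 2 with a replicate block, 4 with DESeq2 and 4 with only the compared groups. The difference between knockout contrasts went from 3 to 5 with DESeq2. Between macrophage diets, 0 became 2 with no filter, 3 with DESeq2 and 6 with only the compared groups. Macrophages against other cells went from 4 to 7 with no filter. Neutrophils went from 3 to 7 with median-of-ratios factors, 6 on library totals alone, 9 with no filter, 9 with DESeq2, 5 with only the compared groups and 5 without both T libraries. T cells went from 2 to 4 on library totals alone, 6 with no filter and 4 with DESeq2. Monocytes went from 4 to 10 with no filter, 11 with DESeq2 and 2 without both T libraries. Ly6C-high against Ly6C-low went from 0 to 4 with only the compared groups.

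Leaving out 1 library at a time gave 3 to 10 calls for IL-6 against GFP, 7 to 9 for IL-6 STAT3-knockout against IL-6, 0 to 1 for it against GFP, 1 to 4 for DDC against GFP, 0 to 0 for DDC STAT3-knockout against DDC and 0 to 4 for the difference between contrasts. It gave 0 to 0 between diets, 2 to 7 for macrophages, 2 to 9 for neutrophils, 0 to 7 for T cells, 1 to 7 for monocytes and 0 to 0 between monocyte groups. Leaving 1 library in a group assumes that it varies like the others. A called direction was reversed for none of the 31 hepatocyte and 13 immune calls, of which 63 of 362 and 39 of 219 recomputed values were no longer called. Uncalled values that turned sign and became called were Cxcl1 in neutrophils (-6.60 without neutrophil replicate 1, from 0.02, leave-one-out range -6.60 to 1.01) and Ccl17 in T cells (-9.99 without T replicate 2, from 1.24, range -9.99 to 2.24). Values called in neither setting changed sign 16 times in hepatocytes and 109 times in immune cells. The cause was not tested.

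Same-numbered libraries share only a number: 4 of 23 hepatocyte pairs and 2 of 30 immune pairs correlated above 0.1, and 5 of 13 and 6 of 12 libraries were closest to their own number. With the replicate block, 11 ligands were called for IL-6 against GFP, 11 for IL-6 STAT3-knockout against IL-6, 2 for it against GFP, 7 for DDC against GFP, 0 for DDC STAT3-knockout against DDC and 2 for the difference between contrasts. In immune cells the block gave 0 between diets, 4 in macrophages, 4 in neutrophils, 3 in T cells, 3 in monocytes and 0 between monocyte groups. Calls lost with the block were Cxcl11 in the difference between contrasts (3.25, adjusted p = 0.0743) and Ccl5 in monocytes (-1.82, 0.0519). Scaling on library totals alone moved the median log2 change of all genes from 0.04 to -0.18 for IL-6 against GFP, from 0.00 to 0.23 for IL-6 STAT3-knockout against IL-6 and from 0.02 to 0.26 for DDC against GFP. Immune libraries had 3817794 to 12945663 counts and a coefficient of variation of 1.00, against 13625040 to 18428988 counts and 0.313 in hepatocytes. Their parts in the number of calls were not tested.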
